A study of Homo sapiens with 4 samples.

Results

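Fibronectin and 9 other secreted glycoproteins and proteoglycans of the extracellular matrix were followed through the silencing of YEATS2, a reader of histone acetylation and crotonylation, in a head and neck cancer cell line. The members were the rows of the count files whose gene symbol was FN1, TNC, POSTN, THBS1, THBS2, FBN1, FBLN1, VCAN, BGN or LUM, so non-collagen proteins only, and all 10 were found among the 60623 genes of the files. The cells were BICR10, a human line that the labels describe as head and neck cancer. They were transduced with a lentivirus carrying a control hairpin (shControl, 2 libraries) or a hairpin against YEATS2 (shYEATS2, 2 libraries), and selected with puromycin. The study lists a pair of hairpins against YEATS2, and which of them was in which shYEATS2 library is not in the labels. The study describes its replicates in general as biological, while the labels do not say for these libraries whether those of a group came from separate cultures, so each error and p below covers only the spread between these libraries.

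The extracellular matrix is a scaffold of secreted proteins outside the cell. Fibronectin is assembled by integrins into fibrils that cells pull on and migrate along. Thrombospondins, tenascin-C and periostin are matricellular proteins, which modulate how cells read the matrix more than they build it. Fibrillin-1 and fibulin-1 belong to microfibrils and elastic fibres. Versican, biglycan and lumican are proteoglycans, that is, core proteins that carry sulfated sugar chains, and versican also binds hyaluronan. Several of these genes are widely used as markers of the mesenchymal state in epithelial-to-mesenchymal transition (EMT), the process the study addressed.

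The libraries held 47297970 and 39824898 counts on genes in shControl and 24072396 and 11334133 in shYEATS2, so depth and silencing cannot be told apart by design. With every library randomly thinned to 11334133 counts, the calls of the 10 genes again numbered 5 lower and 2 higher. Levels are given as CPM, counts scaled to a common library size with edgeR's TMM method, and changes as the log2 fold change of shYEATS2 over shControl. The 17058 genes with enough counts were compared by the quasi-likelihood test of edgeR, a gene counted as called where its adjusted p (Benjamini-Hochberg) was under 0.05, and SE is the standard error. YEATS2 itself was at 66.1 and 66.7 CPM in shControl and at 29.2 and 29.1 CPM in shYEATS2, which was a log2 fold change of −1.19 (SE 0.08, adjusted p = 3.55e-21.) Of the epithelial markers examined, KRT8 was at up to 269 CPM and KRT18 at up to 111 CPM, while KRT19 and GRHL2 were listed at 0 in all libraries, TP63 stayed under 0.255 CPM, and CDH1 was between 0.318 and 0.353 CPM in shControl. KRT5, DSP and PKP1 were at 16.4, 5.56 and 2.91 CPM in shControl replicate 1, and at 15.0, 5.90 and 3.07 CPM in replicate 2. Collagens that mark fibroblasts had higher CPM, not divided by gene length, with COL1A1 at 2845 and 2747 CPM in shControl. Other fibroblast markers were absent or near 0, with TCF21 listed at 0 in all libraries and THY1 at most 0.287 CPM. Several defining epithelial markers were therefore absent or near 0, while others were present, in a line labelled as head and neck cancer.

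All 10 genes passed the filter on low counts, which was run on the 4 libraries together. Each was above its CPM cutoff of 0.313 in every library. The lowest value was that of BGN, at 0.316 CPM in shYEATS2 replicate 1, with 8 counts there and 5 in replicate 2. Whether each gene would pass the whole filter in a single group was not tested. In shYEATS2 5 of them fell (POSTN, LUM, FBLN1, THBS1 and FBN1), 2 rose (VCAN and TNC), and 3 were not called (FN1, THBS2 and BGN). In bulk RNA, fewer cells of a type and less RNA per cell cannot be told apart. Of all tested genes, 46.2% were called, 23.6% as lower and 22.6% as higher. With library totals alone in place of TMM the shares over all genes were 15.0% lower and 31.9% higher, and the median log2 fold change of all genes moved from −0.01 to 0.13. The counts of 5 and 2 among the matrix genes stayed as they were. The groups of libraries did not overlap for any of the 10 genes, with 8 lower and 2 higher in shYEATS2, beside 71.6% of all tested genes without overlap, 36.3% lower and 35.3% higher. The median log2 fold change was −0.59 for the 10 genes and −0.01 for all tested genes. A change of at least 2-fold in addition to the adjusted p was met by POSTN alone among the 10 genes, and by 3.7% of all tested genes as lower and 5.99% as higher.

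**Figure D1:**
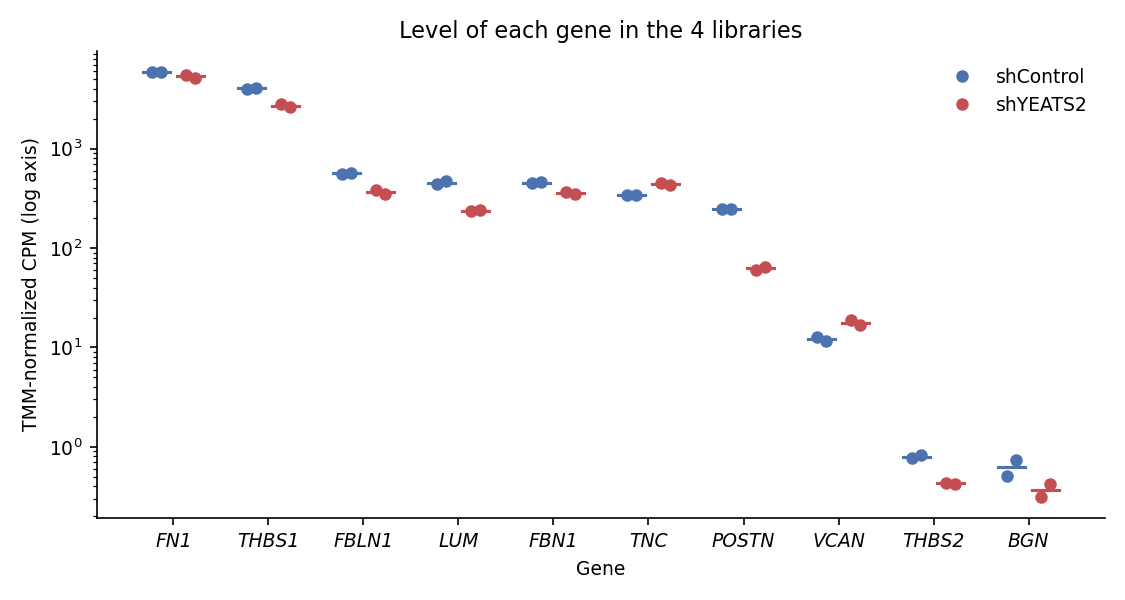
Level of each of the 10 genes in TMM-normalized CPM on a log axis. Points are single libraries, horizontal bars are means of 2 libraries, and colours mark shControl and shYEATS2. The levels run from 5916 CPM for FN1 to under 1 CPM for THBS2 and BGN, and for each gene the pairs of points do not overlap.

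The promoters of 9 of the 10 genes were listed by RefSeq on GRCh38.p14, from 250 bases before the gene's RefSeq start to 50 bases after it. They are shown because the genes moved in both directions and differed in the letters near their start. For each gene the window below holds, in capitals, the motif match nearest to the start. The GC box was searched as GGGCGG on both strands. The TATA box was searched as TATAAA, likewise on both strands. For AP-1 the letters were TGANTCA on both strands. For TEAD factors the letters were GGAATG on both strands. Windows are written 5′ to 3′ on the strand of the gene. A match is a description of the letters and not evidence of binding.
POSTN, TATA box, chr13:37598781-37598808, minus strand: tctgacatgtaTATAAAttctgagctct
THBS2, TATA box, chr6:169253859-169253886, minus strand: gagaagcggcaTATAAAgccgcgctgcc
THBS1, TEAD, chr15:39581022-39581049, plus strand: aggaatccccaGGAATGcgagcgcccct
FBN1, TEAD, chr15:48645012-48645039, minus strand: ggttgggcttgGGAATGgggaccgcgag
FN1, GC box, chr2:215436101-215436128, minus strand: ggcctccagagGGGCGGgaggggaccgt
FBLN1, GC box, chr22:45502836-45502863, plus strand: gccctcctcccGGGCGGgataattgaac
TNC, GC box, chr9:115118370-115118397, minus strand: ctcggggtcggGGGCGGgcaggcgggaa
VCAN, GC box on the other strand, chr5:83471563-83471590, plus strand: gagctgcctttCCGCCCctccgcctgct
BGN, GC box on the other strand, chrX:153494948-153494975, plus strand: cctttagcctcCCGCCCgccgcctctgt
In both POSTN and THBS2 the TATA box began 29 bases before the start. A TATA box was found in 2 of the 9 promoters and in 11.5% of the 35116 promoters in the table, a GC box in 6 of 9 and in 45.0%, a TEAD motif in 3 of 9 and in 4928 of the 35116, and an AP-1 motif in 1 of 9, that of POSTN, and in 7.71%. The GC content was 39.0% in the POSTN promoter and between 57.3% and 78.0% in the other 8, beside a median of 58.7% over all promoters. A GC box was found in genes that fell (THBS1 and FBLN1) as well as in both that rose (TNC and VCAN).

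FN1 (ENSG00000115414, chromosome 2, 215360440 to 215436073, minus strand of GRCh38) encodes fibronectin and had the highest CPM of the 10 genes. It was at 5870.0 and 5916 CPM in shControl and at 5545 and 5187 CPM in shYEATS2. The groups did not overlap, by a small margin. The mean went from 5893 ± 32.7 to 5366 ± 253 CPM (SD, n = 2 each), which was a log2 fold change of −0.14 (SE 0.06) that had a 95% interval from −0.26 to −0.013. Its adjusted p in edgeR was 0.0626 and missed the threshold, while the unadjusted p was 0.0301. With limma-voom the adjusted p was 0.0135, with no filter on low counts it was 0.00894, and without shYEATS2 replicate 1 it was 0.000735 with a log2 fold change of −0.20. Without shYEATS2 replicate 2 the log2 fold change was −0.093 and the adjusted p 0.145, and without shControl replicate 1 or 2 the adjusted p was 0.272 or 0.301. FN1 was thus called in 1 of the 4 fits that left out a library. With library totals alone the log2 fold change was −0.0014 (adjusted p = 0.988). A change of scaling shifts all genes nearly alike. The change relative to the median of all genes, −0.13 under both scalings, therefore cannot tell which scaling holds. FN1 is spliced into plasma and cellular forms, and counts per gene cannot tell these apart.

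**Figure D2:**
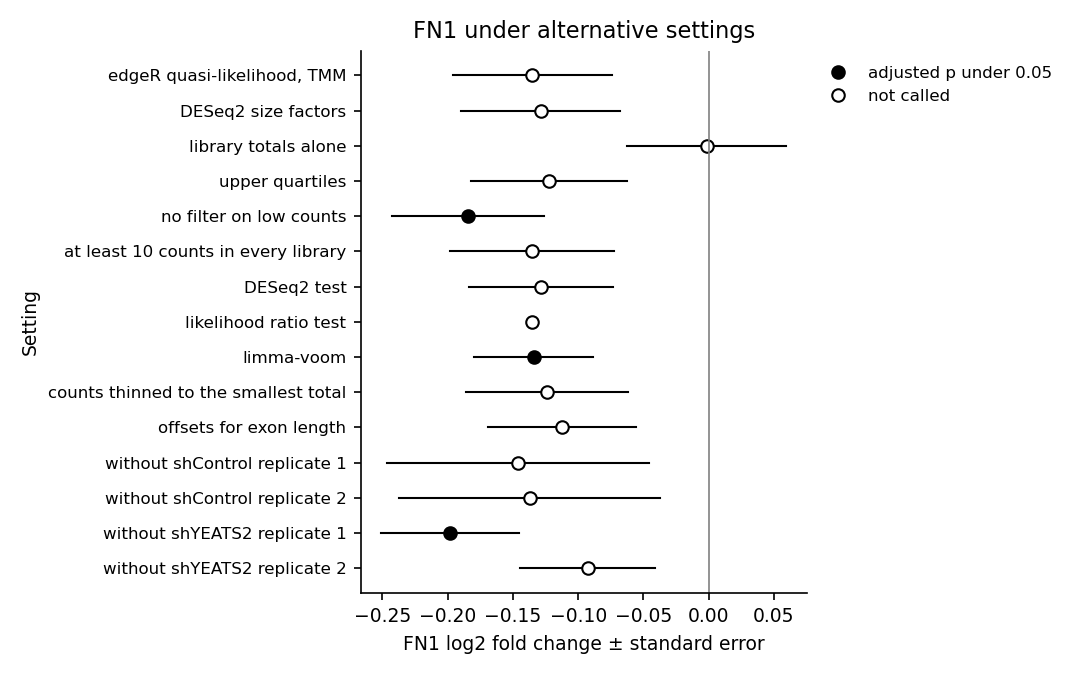
Log2 fold change of FN1 with its standard error under the main test and its alternatives. Filled points have an adjusted p under 0.05 and open points do not, and the likelihood ratio test gives no standard error. All points lie at or below 0, from −0.20 without shYEATS2 replicate 1 to −0.0014 with library totals alone. The 3 filled points are those with no filter on low counts, with limma-voom and without shYEATS2 replicate 1, and the fit with a replicate block is not plotted.

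Among 9357 other genes whose mean reached 10 CPM, those nearest to FN1 in pattern were MAST2, TYRO3 and MTCH1, with Euclidean distances of 0.0085, 0.0087 and 0.011 in log2 CPM centred on each gene's mean over the 4 libraries. Their log2 fold changes were −0.13, −0.12 and −0.14. As many as 719 genes lay within 0.1 of FN1, so its pattern was a common one.

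Among the matricellular genes the changes went both ways. POSTN (ENSG00000133110, chromosome 13, 37562583 to 37598844) encodes periostin, which binds integrins and supports collagen assembly, and its promoter window with the TATA box is shown above. POSTN was at 245 and 250 CPM in shControl and at 60.5 and 65.2 CPM in shYEATS2. By the fitted change 25.3% of the control level remained, at a log2 fold change of −1.98 (SE 0.07, adjusted p = 1.12e-36.) This was the largest fall of the 10 genes and stood at percentile 0.994 of the log2 fold changes of all tested genes, counted from the most negative. Over the pairs of 1 shControl and 1 shYEATS2 library the difference in log2 CPM ran from −2.04 to −1.90.

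THBS1 (ENSG00000137801, chromosome 15, 39581079 to 39599466) encodes thrombospondin-1, which binds CD47, CD36 and LRP1 and can activate latent TGF-beta. It was at 4002 and 4078 CPM in shControl and at 2791 and 2648 CPM in shYEATS2. The level fell to 67.3% of control, at a log2 fold change of −0.57 (SE 0.06, adjusted p = 1.2e-12.) In absolute terms this was the largest loss of CPM among the 10 genes. On the opposite strand, FSIP1 and THBS1-AS1 share 4.89% and 4.49% of the exon length of THBS1, and had at most 307 and 103 counts in any library.

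THBS2 (ENSG00000186340, chromosome 6, 169215780 to 169254050) encodes the close relative thrombospondin-2 and was barely detected. It had 35 and 31 counts in shControl and 11 and 5 counts in shYEATS2, which corresponded to 0.772 and 0.820 CPM and to 0.434 and 0.424 CPM. The log2 fold change of −0.88 had a 95% interval from −1.84 to 0.090 and an adjusted p of 0.131, so a change was not detectable at this depth, and a fall as large as that of LUM lay within the interval. THBS2-AS1 covers 31.2% of the exon length of THBS2 on the opposite strand and had more counts than THBS2 in every library, between 48 and 114, and the strand setting of the counting is not given in the sources used here. THBS2 is therefore uncertain. Per kb of exon, THBS1 exceeded THBS2 at least 3907-fold in each library, so of this pair nearly all RNA was THBS1.

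TNC (ENSG00000041982, chromosome 9, 115019575 to 115118207) encodes tenascin-C, a hexameric glycoprotein that appears in wound healing and tumour stroma and weakens adhesion to fibronectin. It was at 343 and 346 CPM in shControl and at 453 and 432 CPM in shYEATS2. It rose to 129% of control, at a log2 fold change of 0.36 (SE 0.06, adjusted p = 3.14e-07.) TNC thus moved against POSTN and THBS1 in the same libraries.

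**Figure D3:**
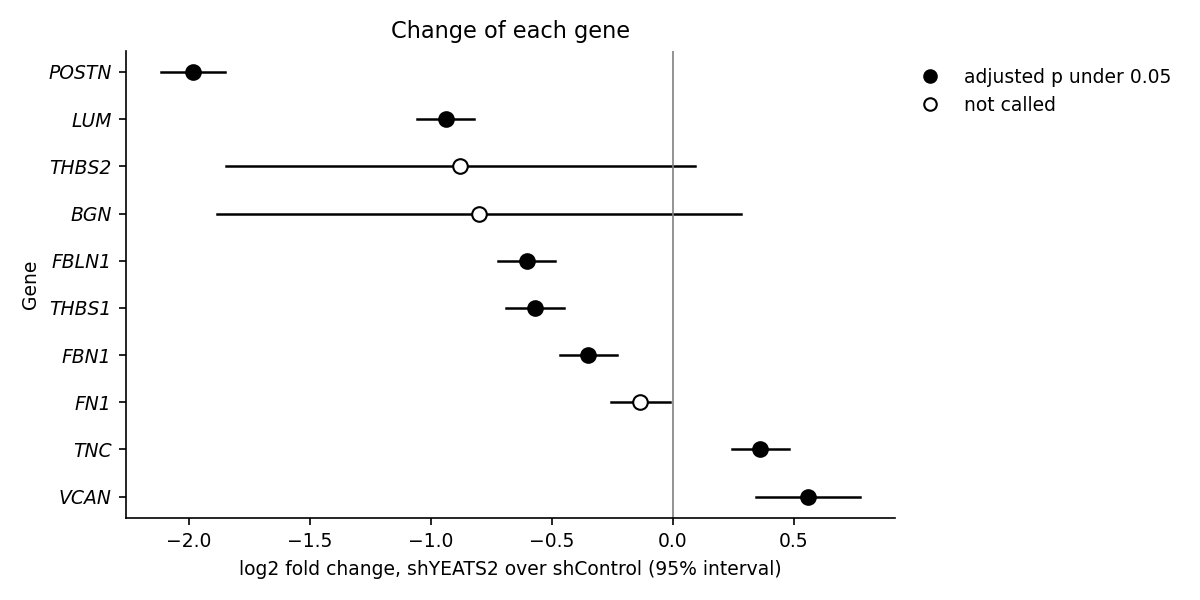
Log2 fold change of shYEATS2 over shControl for each of the 10 genes, with 95% intervals from edgeR's quasi-likelihood fit to 2 libraries a group. Filled points have an adjusted p under 0.05 and open points do not. POSTN lies farthest to the left at −1.98, TNC and VCAN lie to the right of 0, and the wide intervals of THBS2 and BGN go with their low counts.

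Both genes of the microfibril and fibulin families fell. FBN1 (ENSG00000166147, chromosome 15, 48408313 to 48645721) encodes fibrillin-1, the backbone of microfibrils, and was at 448 and 462 CPM in shControl and at 365 and 349 CPM in shYEATS2. Its log2 fold change was −0.35 (SE 0.06, adjusted p = 7.91e-07.) With library totals alone it was −0.21 with an adjusted p of 0.0024. FBLN1 (ENSG00000077942, chromosome 22, 45502238 to 45601135) encodes fibulin-1, which binds fibronectin and basement membranes, and was at 558 and 569 CPM in shControl and at 388 and 352 CPM in shYEATS2. Its level fell to 65.8% of control, at a log2 fold change of −0.60 (SE 0.06, adjusted p = 1.1e-13.) The fall of FBLN1 was near that of THBS1 in size, with 95% intervals from −0.72 to −0.48 and from −0.69 to −0.45. The difference between these changes was not tested.

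The proteoglycans were split. LUM (ENSG00000139329, chromosome 12, 91102629 to 91111494) encodes lumican, a small leucine-rich proteoglycan that binds collagen fibrils and sets their spacing. It was at 442 and 469 CPM in shControl and at 236 and 240 CPM in shYEATS2, and fell to 52.2% of control, at a log2 fold change of −0.94 (SE 0.06, adjusted p = 5.5e-22.) BGN (ENSG00000182492, chromosome X, 153494980 to 153509546) encodes biglycan, of the same family, and had only 23 and 28 counts in shControl and 8 and 5 in shYEATS2. Its log2 fold change of −0.80 had a 95% interval from −1.88 to 0.28 and an adjusted p of 0.226, and without shControl replicate 2 it was −0.52 with an adjusted p of 0.655. Any change of BGN was not detectable at this depth.

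VCAN (ENSG00000038427, chromosome 5, 83471618 to 83582303) encodes versican, a large chondroitin sulfate proteoglycan of loose, hyaluronan-rich matrix. It was at 12.6 and 11.7 CPM in shControl and at 18.8 and 16.7 CPM in shYEATS2. It rose to 147% of control, at a log2 fold change of 0.56 (SE 0.11, adjusted p = 1.44e-05.) Its interval, from 0.34 to 0.77, was wider than that of TNC, and 197 to 572 counts stood behind each library's value.

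To compare levels between genes, CPM were divided by the length of the union of each gene's exons in GENCODE release 44. Per kb of exon, THBS1 was highest in shControl at 441 ± 5.87, followed by FN1 at 342 ± 1.90, LUM at 171 ± 7.01, FBLN1 at 77.3 ± 1.11, POSTN at 45.2 ± 0.672, TNC at 35.9 ± 0.161 and FBN1 at 24.6 ± 0.535 CPM per kb (SD, n = 2 each). VCAN, BGN and THBS2 were at 0.830, 0.260 and 0.111 CPM per kb. No neighbours in this order overlapped between libraries. In shYEATS2 FN1 was at 322 and 301 CPM per kb and THBS1 at 305 and 289, so these overlapped, and POSTN, at 11.1 and 11.9, had dropped below TNC and FBN1. The order of FN1 and THBS1 rests on the length used, since with the longest transcript of each gene FN1 was above THBS1 in shControl as well, at 643 against 519 CPM per kb, and FBLN1 was above LUM.

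Ratios between members within a library do not depend on the scaling of that library. The level per kb of FN1 over that of THBS1 was 0.780 and 0.772 in shControl and 1.06 and 1.04 in shYEATS2. FN1 over POSTN was 7.62 and 7.52 in shControl and 29.1 and 25.2 in shYEATS2. FBN1 over FBLN1 moved less, from 0.316 and 0.319 to 0.369 and 0.390. In each of these ratios both shYEATS2 libraries lay above both shControl libraries. LUM over BGN, with the low counts of BGN, overlapped, at 785 and 569 in shControl and 672 and 509 in shYEATS2. The 10 genes together took 1.14% and 1.15% of all counts on genes in shControl and 1.04% and 0.966% in shYEATS2, and FN1 made up 30.1% of their summed level per kb in shControl and 37.7% in shYEATS2.

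**Figure D4:**
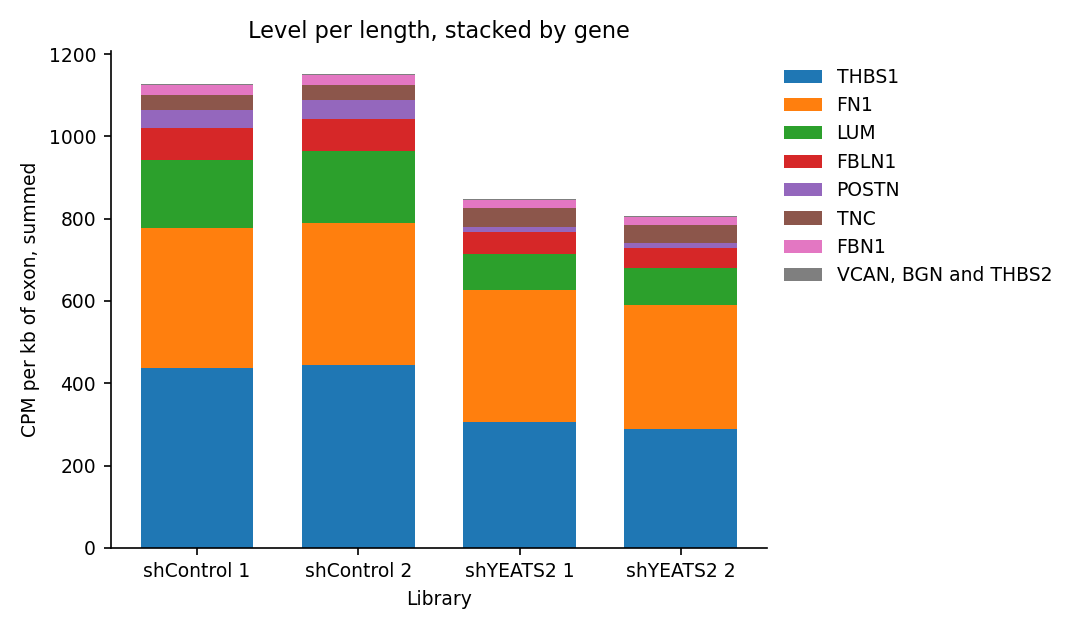
Level of the 10 genes in CPM per kb of exon, stacked by gene for each of the 4 libraries. The stacks reach 1126 and 1150.5 in shControl and 848 and 806 in shYEATS2, with smaller segments of THBS1, LUM, POSTN, FN1, FBLN1 and FBN1 and a larger segment of TNC.

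Of all tested genes, 23.6% were lower in shYEATS2 and 22.6% higher. Beside the falls of POSTN and LUM, 9 of the 10 tested fibroblast markers were lower in shYEATS2 and none was higher. The summed level of the 12 listed markers was 6948 and 6823 CPM in shControl and 2159 and 2015 CPM in shYEATS2. Among them COL1A1 was highest, DCN went from 316 and 327 CPM to 85.7 and 81.8 CPM, TCF21 was listed at 0 in all libraries, and THY1 stayed under 0.3 CPM. Of the 9 tested epithelial markers 7 were lower and 2 higher, and their summed level over the 12 listed was 407 and 402 CPM in shControl and 220 and 206 CPM in shYEATS2. KRT5 fell most of the epithelial markers, from 16.4 and 15.0 CPM to 1.03 and 1.36 CPM. The 2 that rose were CDH1, to 2.84 and 2.12 CPM, and CLDN1, to 12.4 and 12.7 CPM. The part of a mixture of cells in the changes of the matrix genes was not tested.

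Genes that act with these proteins were taken from 7 lists, of which 71 genes were tested. In shYEATS2 27 of them were lower and 20 higher, beside 23.6% and 22.6% of all tested genes. With library totals alone 20 were lower and 24 higher, beside 15.0% and 31.9% of all tested genes. The shares under TMM stand beside the counts of each list below, and no list was tested as a set. Of the fibronectin receptors, 5 of 9 tested genes were lower and 2 higher, with a median log2 fold change of −0.21. ITGA5, the partner of ITGB1 in the classical fibronectin receptor, went from 1009 ± 7.44 to 727 ± 43.8 CPM (log2 fold change −0.47, standard error 0.06), and ITGAV from 495 ± 13.3 to 378 ± 12.2 CPM (−0.39, 0.06). ITGA4, whose integrin binds an alternatively spliced part of fibronectin, rose from 43.5 ± 1.84 to 83.7 ± 1.55 CPM (0.95, 0.07), and ITGB3 from 9.78 ± 0.205 to 15.9 ± 1.04 CPM (0.69, 0.11). The count of lower receptors was 2 with library totals alone and 2 without shControl replicate 2.

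For thrombospondin, 4 of 5 receptors were lower and 0 higher, with a median log2 fold change of −0.34. LRP1, an endocytic receptor that also clears thrombospondin-1, fell by 0.64 on the log2 scale (SE 0.06), and CALR, the chaperone calreticulin, which at the cell surface binds thrombospondin, fell by 0.37 with a standard error of 0.06. CD47, the remaining receptor, had a log2 fold change of −0.12 and an adjusted p of 0.1. With library totals alone 2 of the 5 were lower.

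In the microfibril and elastic fibre list 6 of 15 tested genes were lower and 2 higher, and the median log2 fold change was −0.35. FBLN5, a fibulin needed for elastic fibres, went from 18.1 ± 0.561 to 8.80 ± 0.391 CPM, a log2 fold change of −1.05, and EMILIN2 fell by 0.58 on the log2 scale. EFEMP1, which encodes fibulin-3, rose from 88.3 ± 0.134 to 137 ± 4.26 CPM, a log2 fold change of 0.63, so the fibulins did not move as 1 group. ELN, which encodes elastin, had at most 2 counts in any library. With library totals alone 5 of these genes were lower and 4 higher.

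Of the other thrombospondins, tenascins and matricellular genes, 3 of 11 tested were lower and 4 higher. TGFBI, the close relative of periostin, went from 4288 ± 81.6 to 1957 ± 94.5 CPM, which was a log2 fold change of −1.13 (SE 0.06), and CCN4 fell by 1.86 with a standard error of 0.07. CCN2 and CCN1, of the same family as CCN4, rose by log2 fold changes of 2.36 and 1.01, with standard errors of 0.07 and 0.06. The median of the list was −0.11, and with library totals alone it was 0.02, and its members ran from −2.17 to 2.36.

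Few other small leucine-rich proteoglycans were present, with 4 of 13 tested and 6 listed at 0 in all libraries. DCN, which encodes decorin, the relative of biglycan, fell from 321 ± 7.27 to 83.7 ± 2.76 CPM, which was a log2 fold change of −1.94 (SE 0.06), and was the only one called. Without shYEATS2 replicate 2, 2 of the list were called lower. DCN is also 1 of the fibroblast markers above. LUM and DCN, the members of this family above 10 CPM, both fell.

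Of the 6 tested hyaluronan and versican partners, 4 rose and 0 fell, with a median log2 fold change of 0.52. CD44, the main hyaluronan receptor, rose from 563 ± 6.51 to 755 ± 18.8 CPM, a log2 fold change of 0.42, and HMMR rose by 0.62. HMMR also acts at the mitotic spindle. HAS2, a hyaluronan synthase, had a log2 fold change of −0.16 with an adjusted p of 0.185. Without shYEATS2 replicate 2, 1 of the list was called lower.

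The enzymes that build the chondroitin and dermatan sulfate chains of versican and biglycan were divided evenly under TMM. Of 21 tested, 8 were lower and 8 higher, with a median log2 fold change of 0.02. With library totals alone 7 were lower and 10 higher, with a median of 0.16. XYLT1, which adds the first sugar of the chain to the core protein, rose from 18.9 ± 1.23 to 61.6 ± 4.15 CPM, which was a log2 fold change of 1.71 (SE 0.08), and the sulfotransferase CHST11 rose by 1.23 with a standard error of 0.10. DSEL, an epimerase that turns chondroitin into dermatan sulfate, fell from 201 ± 7.53 to 105 ± 3.84 CPM, a log2 fold change of −0.94, and the sulfotransferase CHST12 fell by 0.88. XYLT2, the paralog of XYLT1, had a log2 fold change of −0.12 with an adjusted p of 0.232.

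**Figure D5:**
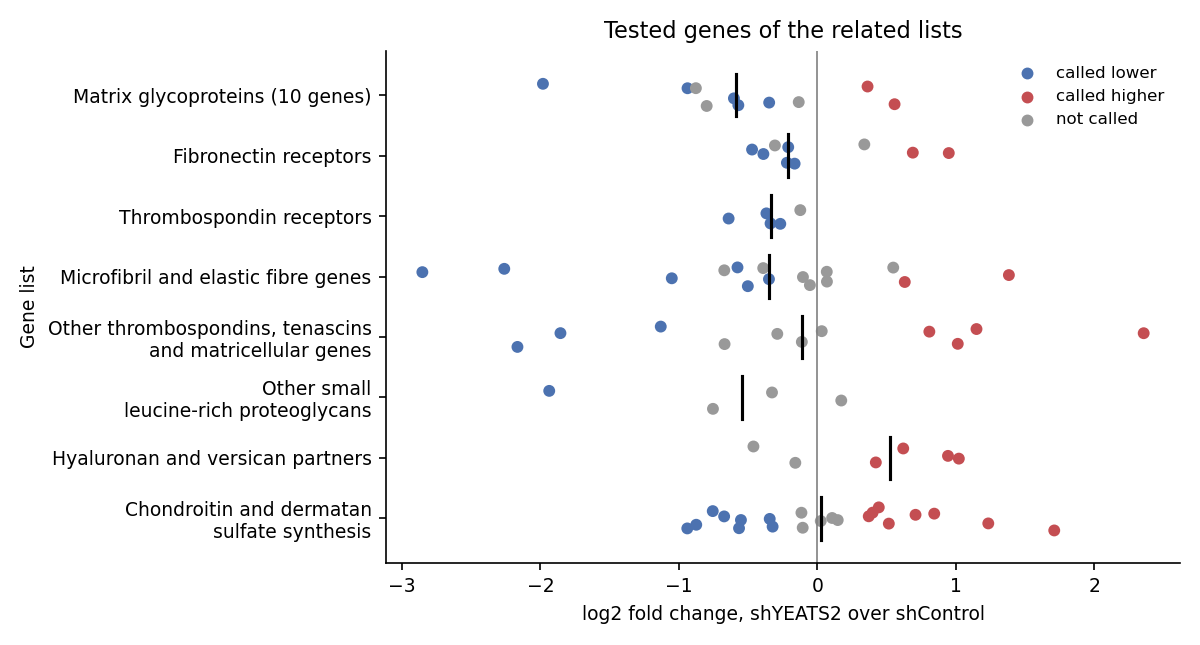
Log2 fold change of shYEATS2 over shControl for every tested gene of the 10 matrix glycoproteins and of the 7 related lists. Points are genes, coloured by call at an adjusted p under 0.05 and spread vertically for legibility, and black bars are list medians. The median was −0.59 for the matrix glycoproteins and 0.52 for the hyaluronan and versican partners.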

How the data were processed

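The deposited values were raw counts for each Ensembl gene in 4 stranded mRNA libraries of BICR10 cells. For these, the authors used paired reads of 150 bp, STAR for alignment to GRCh38 and HTSeq for counting. The strand setting, the annotation release and the version of STAR are not given in the sources used here. Tallies of read pairs that were given to no gene made up 15.3% to 16.5% and were left out. Positions and lengths came from GENCODE release 44, which held 60295 of the 60623 genes.

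Genes were kept by filterByExpr, scaled with TMM and tested with glmQLFit (robust) and glmQLFTest of edgeR 4.0.16 in R 4.3.3, without covariates, and p-values were adjusted over all 17058 tested genes. The methods were tested on simulated data. Standard errors were taken from the fitted change and its quasi-likelihood F. Each ± is the SD of 2 libraries, and 2 against 2 libraries cannot give an exact permutation p below 0.333. Chi-square over degrees of freedom between replicates was 5.95 and 5.39, above counting noise. The members and lists were chosen with earlier results of these data known. Besides the members and YEATS2, the text names the 2 largest falls and rises of each list among called genes whose mean reached 10 CPM, with no overlap between groups, the 3 genes nearest to FN1, and markers at the top of their list or at 0. Chosen after their values were seen were XYLT2, CD47, HAS2 and ELN. Among the markers these were CDH1, TP63, KRT18, KRT5, DSP, PKP1, CLDN1, DCN, THY1, CDH5, DES, CNN1, ACTA2, CSPG4 and RGS5. Alternatives were other scalings, filters and thresholds, DESeq2 1.42.0, the likelihood ratio test, limma-voom (limma 3.58.1), a replicate block, thinning, offsets for exon length, and each library left out. A protein table was not used here.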

Additional observations from a re-analysis of the deposited data

How the results depend on the processing

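The direction of change of the 10 genes and YEATS2 was the same under all alternatives that gave a value. FN1 was called under 4 of 17 alternatives, 1 of them the replicate block (log2 fold change −0.14, adjusted p = 0.0314). The cause was not tested. Among the alternatives, an adjusted p under 0.01 and the added 2-fold change were stricter thresholds on the main fit. A gene not called in the main fit could not be called under either. THBS2 and BGN had too few counts for the thinned data and for the filter of 10 counts in every library, and were called under none of the 15 other alternatives, with adjusted p from 0.103 and 0.186 upward. The labels do not say whether libraries with the same replicate number shared a culture or preparation. The differences of replicates 1 and 2 in the 2 groups had a correlation of −0.018, which cannot settle this. The block moved the calls over all genes to 4142 lower and 3870 higher, from 4019 and 3857, and the 10 genes to 6 lower and 2 higher, and gave −1.19 for YEATS2. Requiring a 2-fold change left 1 lower and 0 higher of the 10 genes, 631 and 1022 of all genes, and 7 and 7 of the related genes, since this is a stricter threshold. Library totals alone left 2567 lower genes, and with DESeq2 in place of edgeR 2949 were lower and 2820 higher. With the longest transcript as length, FN1 made up 38.2% of the summed level per kb in shControl. When each library was left out in turn, with the lone library assumed to vary like the other group, the 10 genes gave 5 to 6 lower and 2 higher, all genes 3062 to 4051 lower and 2604 to 3677 higher, and the related genes 22 to 29 lower and 17 to 20 higher. Of 238 counts of single lists, 224 stayed within 1.5 times. Counts of 0 in both fits were taken as within, which raises this share. THBS2, BGN and, less so, VCAN rest on low counts.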

Other observations

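Markers of endothelial cells and leukocytes were mostly near 0, those of smooth muscle and pericytes less so. Of the 7 endothelial markers, KDR, a receptor of VEGF, was highest at 33.8 and 35.1 CPM in shControl and 17.0 and 17.4 CPM in shYEATS2, while CDH5 and CLDN5 were at or near 0, and 5 of the 7 stayed under 1 CPM in all libraries. Of the 7 smooth muscle and pericyte markers, NOTCH3 was highest, at 200.2 and 214 CPM in shControl and 319 and 268 CPM in shYEATS2. DES and CNN1 were at or near 0, and 3 of the 7 stayed under 1 CPM in all libraries. ACTA2, CSPG4 and RGS5 were between 1.66 and 5.72 CPM in all libraries. Of the 7 leukocyte markers, 6 stayed under 1 CPM in all libraries, CD3E and CD68 were listed at 0, and their sum was at most 2.73 CPM.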
